A study of Mus musculus with 18 samples.

Results

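Tumour-infiltrating CD8+ T cells sorted as Tim-3+ were set against those sorted as Ly108+ with an intact Nr4a1 gene, in 2 and 3 RNA sequencing libraries of the 18 in the series. The cells were OT-I cells, mouse CD8+ T cells with a transgenic receptor that recognises ovalbumin. The labels give both sorts a WT genotype, and the Ly108+ libraries are labelled Nr4a1 WT. The Tim-3+ cells were taken 21 days after the tumour cells were injected, together with a sort of cells positive for a red reporter of Nr4a1 (Nr4a1RFP+, 2 libraries). The Ly108+ cells were sorted with Nr4a1 KO counterparts (3 libraries), and no day is given for them. The labels do not give the tumour line, the age of the mice, whether the Tim-3+ cells carried the reporter, or whether libraries of a group came from separate mice. Of 11106 genes listed in both deposited tumour tables, 9729 reached 1 RPKM (reads per kilobase of gene, scaled to library size) in at least 2 of the 5 libraries, and these are the genes compared. A further 1377 did not reach it. Of the 9729, 293 reached it only through the Tim-3+ libraries and 667 only through the Ly108+ libraries. Genes in those sets entered only through the group where they were high, and 116 of the 293 and 184 of the 667 are among the calls below. Of the genes named below, they include Adgrg1, Lars2, Csl and Filip1 (only through Tim-3+ libraries). They also include Tnfsf8, Id3, Cxcr5, Nt5e and Lrig1 (only through Ly108+ libraries). The calls of such genes are partly a product of the filter.

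CD8+ T cells that meet antigen for a long time in a tumour pass into a dysfunctional state called exhaustion. A stem-like pool is kept by the transcription factor TCF1, encoded by Tcf7, carries Ly108 (encoded by Slamf6) and can renew itself. Cells that leave this pool gain the inhibitory receptor Tim-3 (encoded by Havcr2) and cytotoxic proteins such as granzyme B (Gzmb), and they lose TCF1. S1pr1 encodes the receptor that lets T cells leave tissue along a lipid gradient and is high in recirculating cells.

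The 2 groups come from tables that were normalised separately, and the labels do not give the library preparation of each table. Sort, table and library preparation therefore cannot be told apart between Tim-3+ and Ly108+ cells. For this reason each gene was ranked within its own library, from 0 (lowest of the 9729 genes) to 100 (highest), and groups were compared by their mean percentile ranks. A gene was called when the libraries of the groups did not overlap and the group means lay at least 20 percentile points apart. Because ranks compress differences among abundant transcripts, each rank was also replaced by the mean log2(RPKM + 1) at that rank over the 5 libraries. A gap of at least 1 without overlap was the call on this rank-matched log2 scale. No test was made across the tables, since 2 against 3 libraries allow 10 assignments and an exact two-sided p no smaller than 0.1.

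Libraries of 1 group ranked the genes nearly alike (Spearman rho across genes 0.987 to 0.997), as did groups within 1 table (0.952 to 0.993). Libraries of different tables reached only 0.715 to 0.771. Between Tim-3+ and Ly108+ Nr4a1 WT cells 88.4% of genes had libraries that did not overlap, and for 74.5% of genes all 4 libraries of the Nr4a1RFP+ and Tim-3+ table lay on 1 side of all 6 Ly108+ libraries. For 2724 genes (28%) the libraries were split by table in this way with means at least 20 points apart. By percentile, 1451 genes were called higher in Tim-3+ cells (14.9%) and 1532 lower (15.7%). Of these, 1405 of the higher and 1484 of the lower were split by table, with no condition on the table means. On the rank-matched scale 1816 were called higher (18.7%) and 1868 lower (19.2%). Those shares are the background against which the counts below are read. Depth, recovered as whole reads from the RPKM values, was 17.7 M and 24.1 M reads for the Tim-3+ libraries, 22.2 M and 23.5 M for Nr4a1RFP+, 15.2 M to 15.5 M for Ly108+ Nr4a1 WT and 15.7 M to 15.8 M for Ly108+ Nr4a1 KO.

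2 further readings were placed beside the ranks. The first is the set of genes for which Tim-3+ cells lay apart, by the same rule, from each of the 3 other tumour groups, Nr4a1RFP+ cells of their own table included. By percentile 89 genes were higher than all 3 (0.915%) and 71 lower (0.73%), and on the rank-matched scale 94 (0.966%) and 79 (0.812%). The second is limma on log2(RPKM + 1) between Tim-3+ and Nr4a1RFP+ libraries, the only test that the design allows for the Tim-3+ libraries within 1 table. Of 9508 genes tested, 819 were higher (8.61%) and 863 lower (9.08%) in Tim-3+ cells at an adjusted p under 0.05. Those counts rested on few libraries. Without Nr4a1RFP+ library 1 they were 424 and 369, without Nr4a1RFP+ library 2 they were 350 and 279, without Tim-3+ library 1 they were 1476 and 1366, and without Tim-3+ library 2 they were 1650 and 1575. Both readings use the same Tim-3+ libraries as the main comparison and are no independent evidence for it. Since the labels do not say that libraries came from separate mice, each p measures only the spread between these libraries.

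The sorted proteins' own transcripts matched the sort labels. Havcr2 (chromosome 11) read 215 and 236 RPKM in Tim-3+ cells and 5.66, 6.76 and 6.24 RPKM in Ly108+ Nr4a1 WT cells. The groups lay far apart, at percentile 98.3 ± 0.167 (SD, n = 2) and 40.2 ± 2.28 (SD, n = 3), a rank-matched log2 difference of 4.94. Within their own table Havcr2 was higher than in Nr4a1RFP+ cells, which read 18.4 and 13.0 RPKM (limma log2 fold change 3.78, SE 0.17, adjusted p = 6.39e-05).

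Slamf6 (chromosome 1), the gene of Ly108, went the other way, with 3.63 and 4.07 RPKM in Tim-3+ cells and 15.02, 15.7 and 15.8 RPKM in Ly108+ Nr4a1 WT cells, 32.3 points apart. Nr4a1RFP+ cells held 27.99 and 32.4 RPKM of Slamf6, so within their table the Tim-3+ libraries were the low ones (log2 fold change -2.68, SE 0.12, adjusted p = 6.47e-05). CD8+ T cell identity was shared: Cd8a, a CD8 coreceptor chain, read 305 and 287 RPKM in Tim-3+ cells and 176, 179 and 174 RPKM in Ly108+ Nr4a1 WT cells, a gap of 0.517 percentile points that was not called. Cd3e, a chain of the T cell receptor complex, differed by 2.79 points, and Cd8b1, the other CD8 chain, by 1.62 points.

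Gzmb (chromosome 14) was abundant in both sorts and was not called by percentile. It read 1728 and 1915 RPKM in Tim-3+ cells and 242, 220 and 221 RPKM in Ly108+ Nr4a1 WT cells, which put it at percentiles 99.8 ± 0.0291 and 98.7 ± 0.14. On the rank-matched log2 scale the groups lay 2.33 apart and the gene was called higher. Its percentile difference of 1.16 points had a ceiling of 1.33 points, so subtracting the median difference of genes of like length (10.8 points) gave -9.60 and would have been negative whatever its rank in Tim-3+ cells. On the rank-matched scale 1.41 remained after the same subtraction. Nr4a1RFP+ cells held 156 and 96.1 RPKM of Gzmb, less than the Ly108+ libraries, and the difference between Tim-3+ and Nr4a1RFP+ cells passed (log2 fold change 3.88, SE 0.23, adjusted p = 0.000131).

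Tcf7 was among the genes with the largest rank-matched gaps of all those named, lower in Tim-3+ cells. It read 5.45 and 2.70 RPKM there and 650, 665 and 697 RPKM in Ly108+ Nr4a1 WT cells, at percentiles 34.2 ± 13.7 and 99.7 ± 0.0157 and 7.20 apart on the rank-matched log2 scale. Nr4a1RFP+ cells held 102 and 104 RPKM of Tcf7, between the other groups and well above Tim-3+ cells (log2 fold change -4.42, SE 0.24, adjusted p = 9.33e-05). In bulk libraries fewer TCF1-expressing cells and less Tcf7 RNA per cell cannot be told apart, and the same holds for every gene below.

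S1pr1 was lower in Tim-3+ cells too, but it did not set them apart from the cells of their own table. Tim-3+ cells held 15.2 and 8.51 RPKM of S1pr1, Nr4a1RFP+ cells 18.6 and 15.1 RPKM, and Ly108+ Nr4a1 WT cells 200, 202 and 199 RPKM. Against Ly108+ Nr4a1 WT cells the gap was 34.6 percentile points. Against Nr4a1RFP+ cells S1pr1 did not pass (log2 fold change -0.52, SE 0.24, adjusted p = 0.198), and 1 Nr4a1RFP+ library lay below a Tim-3+ one.

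The promoters of Havcr2, Gzmb and Slamf6 are shown because Havcr2 and Slamf6 encode the proteins sorted on and Gzmb is a gene of effector cells that is abundant in both sorts, 250 bases upstream of the RefSeq start on GRCm38.p6, read 5′ to 3′ on the gene's strand. Havcr2 lies at chr11:46454681-46454930 on the plus strand, Gzmb at chr14:56262335-56262584 on the minus strand and Slamf6 at chr1:171917212-171917461 on the plus strand.
Havcr2: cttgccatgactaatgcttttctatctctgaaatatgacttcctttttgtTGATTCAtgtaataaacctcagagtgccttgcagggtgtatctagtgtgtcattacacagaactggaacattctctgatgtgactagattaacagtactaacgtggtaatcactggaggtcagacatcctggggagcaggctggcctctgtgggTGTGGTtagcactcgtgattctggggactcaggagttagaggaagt
Gzmb: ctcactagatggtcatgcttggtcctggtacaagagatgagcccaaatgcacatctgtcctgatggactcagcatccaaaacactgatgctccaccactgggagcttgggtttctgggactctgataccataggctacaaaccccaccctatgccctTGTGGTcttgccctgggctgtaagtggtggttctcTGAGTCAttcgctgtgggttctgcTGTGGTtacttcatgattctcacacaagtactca
Slamf6: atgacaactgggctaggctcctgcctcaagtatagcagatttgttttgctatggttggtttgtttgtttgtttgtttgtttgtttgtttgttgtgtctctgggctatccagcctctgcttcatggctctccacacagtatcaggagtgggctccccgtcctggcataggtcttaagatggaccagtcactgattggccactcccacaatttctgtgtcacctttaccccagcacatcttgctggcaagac
Capitals mark matches to the letters TGTGGT, which RUNX factors recognise, and TGANTCA, which AP-1 factors recognise, searched on both strands. Havcr2 held TGTGGT at 46 to 41 bases before the start and TGANTCA at 200 to 194. Gzmb held TGTGGT at 93 to 88 and at 34 to 29 and TGANTCA at 58 to 52. Slamf6 held no match to either, and none of the 3 windows held CTTTGAT, the letters of a TCF and LEF site, or AAAGGTCA, those of the NR4A response element. Of 27025 RefSeq promoters of this length 14.2% held TGTGGT and 6.87% held TGANTCA. Among the genes compared that had a window these shares were 10.7% and 3.99%, among genes called higher in Tim-3+ cells 14.4% and 4.38%, and among genes called lower 7.27% and 3.44%. Of the genes with Tim-3+ cells apart from all 3 other groups, 14.3% of 63 on the high side and 5.56% of 54 on the low side held TGANTCA, 14.3% and 9.26% held TGTGGT, 3.17% and 0% held CTTTGAT, and 0 of either held AAAGGTCA. Among the genes compared that had a window, 2.31% held CTTTGAT and 0.72% held AAAGGTCA. At such shares sets of 63 and 54 are too small for 0 matches to show a lack. A match describes letters in a window and does not show binding.

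**Figure D1:**
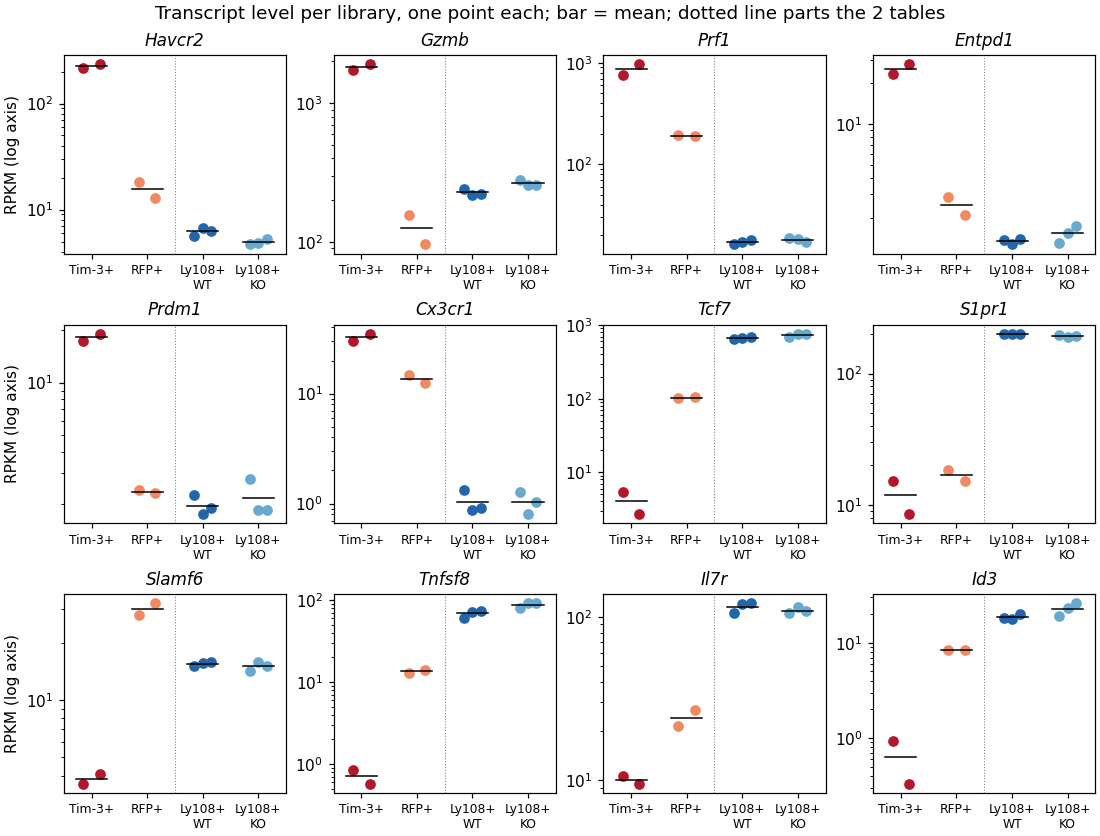
Transcript level in RPKM (log axis) of 12 genes in each tumour library, one point a library, with the group mean as a bar; the dotted line parts the Nr4a1RFP+ and Tim-3+ table from the Ly108+ table. Havcr2, Entpd1 and Prdm1 stand high in the 2 Tim-3+ libraries, Tcf7, Tnfsf8 and Id3 stand low there, and for S1pr1 the Nr4a1RFP+ libraries lie with the Tim-3+ ones.

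Genes of stem-like and naive-memory T cells ranked lower in Tim-3+ cells as a group. Of 20 genes in the list, all of which passed the filter, 15 were called lower and 0 higher by percentile (17 and 1 on the rank-matched scale), with a median of -37.6 points, where the median over all 9729 genes was 0.769 points. For 9 of the 20, Tim-3+ cells also lay below Nr4a1RFP+ and both Ly108+ groups, among them Tcf7, Slamf6, Il7r, Bach2, Id3, Myb, Cxcr5 and Tnfsf8. Of these, Id3, Cxcr5 and Tnfsf8 passed the filter only through the Ly108+ libraries, where they were high. In limma 13 of the 20 were lower than in Nr4a1RFP+ cells and 0 higher, and 8 of the 13 passed in all 4 fits that left out a library. Of the other 5, 4 (Id3, Cxcr5, Tnfsf8 and Bcl6) fell under the filter in some of those fits and passed in each that tested them, and Lef1 lost its call.

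Tnfsf8, which encodes the ligand of CD30, had the largest percentile gap of any gene named as lower. It read 0.834 and 0.576 RPKM in Tim-3+ cells, 12.9 and 14.0 in Nr4a1RFP+ cells, and 59.8, 71.9 and 73.8 in Ly108+ Nr4a1 WT cells, a gap of 88.3 points with no overlap. Id3, an inhibitor of E-protein transcription factors that is kept on in memory precursors, read 0.927 and 0.33 RPKM in Tim-3+ cells against 18.2, 17.98 and 20 RPKM. Il7r, the receptor chain for the survival cytokine IL-7, read 10.6 and 9.55 RPKM against 106, 120 and 121 RPKM, with Nr4a1RFP+ cells between them at 21.6 and 26.9.

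The transcription factors Myb and Bach2, which restrain effector differentiation, behaved alike in rank, at -58.0 and -36.8 points. Cxcr5, a follicular homing receptor that marks stem-like cells, was at 0.117 and 0.23 RPKM in Tim-3+ cells and at 3.55, 3.03 and 3.69 RPKM in Ly108+ Nr4a1 WT cells. Not every member of the list separated Tim-3+ cells from Nr4a1RFP+ cells. Klf2, the factor that drives S1pr1, was 65.2 points lower than in Ly108+ Nr4a1 WT cells (3.97 and 2.47 RPKM against 69.9, 72.1 and 69.1), but Nr4a1RFP+ cells read 3.87 and 2.66 RPKM (log2 fold change -0.03, SE 0.21, adjusted p = 0.948). Foxo1, which acts upstream of Klf2, read 6.95 and 5.43 RPKM in Tim-3+ cells, 8.89 and 7.45 in Nr4a1RFP+ cells and 46.5, 46.0 and 46.4 in Ly108+ Nr4a1 WT cells. Ccr7, the lymph node chemokine receptor, was ranked within 0.917 points in both sorts, although Nr4a1RFP+ cells held more of it than Tim-3+ cells (log2 fold change -3.75, adjusted p = 8.72e-05). Xcl1, a chemokine of stem-like cells, was the 1 member called higher on the rank-matched scale, at 515 and 260 RPKM against 100.6, 116 and 87.3 RPKM. Against Nr4a1RFP+ cells, which held 1226 and 1110 RPKM, Xcl1 was lower in Tim-3+ cells (log2 fold change -1.67, adjusted p = 0.0102).

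**Figure D2:**
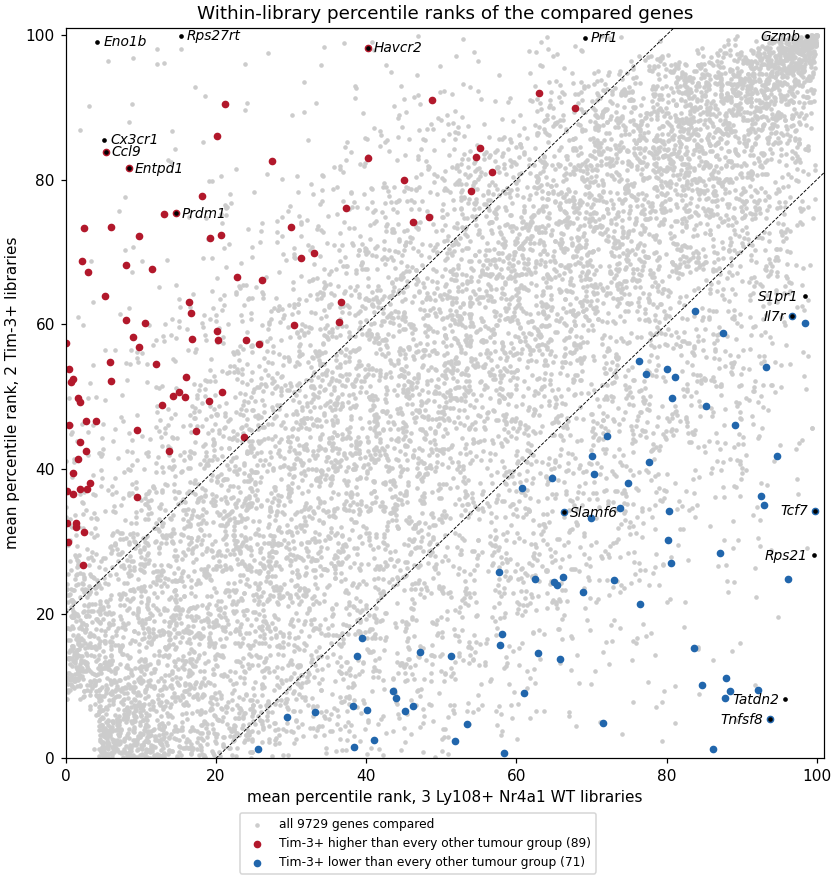
Mean percentile rank of each of the 9729 genes in the 3 Ly108+ Nr4a1 WT libraries (horizontal) and the 2 Tim-3+ libraries (vertical), with dashed lines at 20 points either side of equality; red and blue mark the 89 and 71 genes for which Tim-3+ cells also lay apart from the other 2 tumour groups. Tcf7 and Tnfsf8 sit at the lower right and Havcr2, Ccl9 and Entpd1 at the upper left, while Eno1b, Rps27rt, Tatdn2 and Rps21 are far off the diagonal without setting Tim-3+ cells apart within their table.

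Among inhibitory receptors and other exhaustion genes, members moved in both directions. Of 16 in the list 14 passed, of which 5 were called higher and 2 lower by percentile and 8 and 2 on the rank-matched scale, with a median of 5.25 points. Entpd1, which encodes the ATP-degrading ectoenzyme CD39, read 23.4 and 27.9 RPKM in Tim-3+ cells, 2.88 and 2.11 in Nr4a1RFP+ cells and 1.39, 1.28 and 1.39 in Ly108+ Nr4a1 WT cells. Its gap was 73.2 points, and it passed against Nr4a1RFP+ cells (log2 fold change 2.93, SE 0.15, adjusted p = 8.72e-05). Cd38, an NAD-degrading ectoenzyme of terminally exhausted cells, read 15.9 and 17.3 RPKM against 1.37, 0.866 and 1.12 RPKM, with Nr4a1RFP+ cells at 6.92 and 7.73. For Havcr2, Entpd1 and Cd38 the Tim-3+ cells were apart from all 3 other groups.

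Tox, the transcription factor that sets up exhaustion, and Cd160, an inhibitory receptor, were called higher as well but did not separate the cells within the table. Tox read 57.0 and 65.3 RPKM in Tim-3+ cells, 60.0 and 67.8 in Nr4a1RFP+ cells and 5.84, 6.09 and 5.70 in Ly108+ Nr4a1 WT cells (adjusted p against Nr4a1RFP+ cells 0.783). Cd160 read 90.5 and 76.8, 109 and 98.5, and 7.04, 6.43 and 7.43 RPKM in the same order. Pdcd1 (PD-1) and Lag3 were called on the rank-matched scale alone, at 2.37 and 3.12, with Pdcd1 at 461 and 607 RPKM against 74.7, 80.01 and 82.6 RPKM. Ctla4 and Tigit were not called by either rule, at -0.708 and 0.257 points.

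Nt5e and Btla went down in rank. Nt5e, which encodes the adenosine-producing ectoenzyme CD73, read 0.909 and 0.934 RPKM in Tim-3+ cells, 5.98 and 8.42 in Nr4a1RFP+ cells and 8.003, 7.57 and 7.40 in Ly108+ Nr4a1 WT cells. Btla, an inhibitory receptor of less differentiated T cells, read 3.25 and 2.08, 11.9 and 12.8, and 20.4, 19.7 and 18.9 RPKM. In both, Tim-3+ cells lay below all 3 other groups. The 2 ectoenzymes of the same adenosine pathway thus stood on opposite sides, Entpd1 high and Nt5e low in Tim-3+ cells.

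Cytotoxic effector genes were mostly so abundant in both sorts that percentile and rank-matched calls diverged. Of 24 in the list 20 passed, 5 were called higher and 0 lower by percentile, and 14 were called higher and 0 lower on the rank-matched scale. With length medians subtracted the list's median of 6.39 points became -4.38, while on the rank-matched scale the median over the 19 members with a known length was 1.57 before and 0.93 after. In limma 12 of the 20 were higher and 2 lower than in Nr4a1RFP+ cells, of which 6 and 1 passed in all 4 fits that left out a library, and 5 and 1 lost the call in a fit that tested them. Prf1, which encodes the pore-forming protein perforin, read 759 and 975 RPKM in Tim-3+ cells, 192 and 191 in Nr4a1RFP+ cells and 16.2, 17.2 and 18 in Ly108+ Nr4a1 WT cells, 5.36 apart on the rank-matched scale. Against Nr4a1RFP+ cells it passed (log2 fold change 2.16, SE 0.16, adjusted p = 0.000297).

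Cx3cr1, the fractalkine receptor of effector cells, had an 80.4 point gap (30.01 and 35.2 RPKM against 1.33, 0.877 and 0.914 RPKM), and Nr4a1RFP+ cells stood between at 14.8 and 12.5 RPKM. Gzmc, a granzyme of strongly stimulated cells, read 39.2 and 61.4 RPKM against 3.49, 2.10 and 2.81 RPKM. Gzmc shares 14.3% of its 32-base transcript windows with other genes, and no source read here says how such reads were assigned, so its level is uncertain. The related Gzmd, Gzme and Gzmf were listed in the table of the Tim-3+ libraries, at 82.2 and 109, 74.8 and 104, and 100.5 and 137 RPKM, and are not compared with Ly108+ cells here. Klrg1, a receptor of terminal effectors, read 5.63 and 9.57 RPKM against 1.79, 0.825 and 0.637 RPKM. Serpinb9b, a member of the serpin family that blocks granzymes, read 140 and 183 RPKM against 2.37, 4.06 and 4.72 RPKM, with Nr4a1RFP+ cells also high at 74.3 and 106.

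For Gzma and Ccl5 the lowest libraries were those of Nr4a1RFP+ cells. Gzma, a granzyme of cytotoxic and memory cells, read 124 and 65.6 RPKM in Tim-3+ cells, 7.22 and 2.71 in Nr4a1RFP+ cells and 64.2, 36.8 and 36.1 in Ly108+ Nr4a1 WT cells. Ccl5, a chemokine of memory and effector CD8+ cells, read 6425 and 2885 RPKM, 363 and 188, and 1311, 1031 and 1045 in the same order. Both passed in limma against Nr4a1RFP+ cells (log2 fold changes 4.04 and 4.04, adjusted p = 0.000859 and 0.00109), while against Ly108+ Nr4a1 WT cells Gzma was only just called on the rank-matched scale (at 1.004) and Ccl5 by neither rule. Gzmk, another granzyme, was called higher on the rank-matched scale, at 94.1 and 105 RPKM against 28.4, 35.1 and 34.3 RPKM. Nkg7, which encodes a granule membrane protein, read 6367 and 4508 RPKM against 330, 315 and 294 RPKM, and its rank-matched difference of 3.13 was 2.21 with the length median subtracted (its percentile difference, 0.714 points under a ceiling of 0.75, turned to -10.05 by construction).

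Chemokine and cytokine transcripts included several of the strongest gaps. Of 20 in the list 16 passed, 7 were called higher and 2 lower (Tnfsf11 and Cxcl10), with a median of 13.6 points. On the rank-matched scale the list's median was 1.10, and 0.19 with length medians subtracted. In limma 8 were higher and 3 lower than in Nr4a1RFP+ cells, and 1 and 1 of them lost the call in a fit that left out a library. Ccl3 and Ccl4 encode inflammatory chemokines. Ccl3 read 485 and 327 RPKM in Tim-3+ cells, 58.1 and 43.1 in Nr4a1RFP+ cells and 9.59, 6.34 and 3.95 in Ly108+ Nr4a1 WT cells, and Ccl4 read 1536 and 916, 309 and 183, and 17.1, 14.7 and 11.5 RPKM. Ccl9, a related chemokine, had the largest gap of the list at 78.6 points, with 29.9 and 28.7 RPKM against 1.43, 0.894 and 0.782. Csf1, a growth factor for macrophages, read 37.9 and 27.96 RPKM against 2.41, 2.36 and 2.38 RPKM.

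For Ccl3, Ccl4, Ccl9 and Csf1 the difference from Nr4a1RFP+ cells passed in limma too (log2 fold changes 2.97, 2.32, 2.88 and 1.38, adjusted p = 0.000279, 0.00307, 0.000575 and 0.00231). Ifng, which encodes interferon gamma, was called on the rank-matched scale at 278 and 217 RPKM against 88.6, 61.3 and 54.7 RPKM. Spp1, which encodes osteopontin, read 1619 and 1694 RPKM against 6.82, 7.83 and 9.05 RPKM, but Nr4a1RFP+ cells were as high, at 1242 and 1359 (adjusted p = 0.214). Tnfsf11, the gene of RANKL, was low at 3.91 and 4.54 RPKM against 54.0, 66.0 and 60.1 RPKM, and Tim-3+ cells lay below all other groups. Csf2, which encodes GM-CSF, was 26.6 points higher than in Ly108+ Nr4a1 WT cells and yet lower than in Nr4a1RFP+ cells (log2 fold change -2.27, adjusted p = 0.000319).

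**Figure D3:**
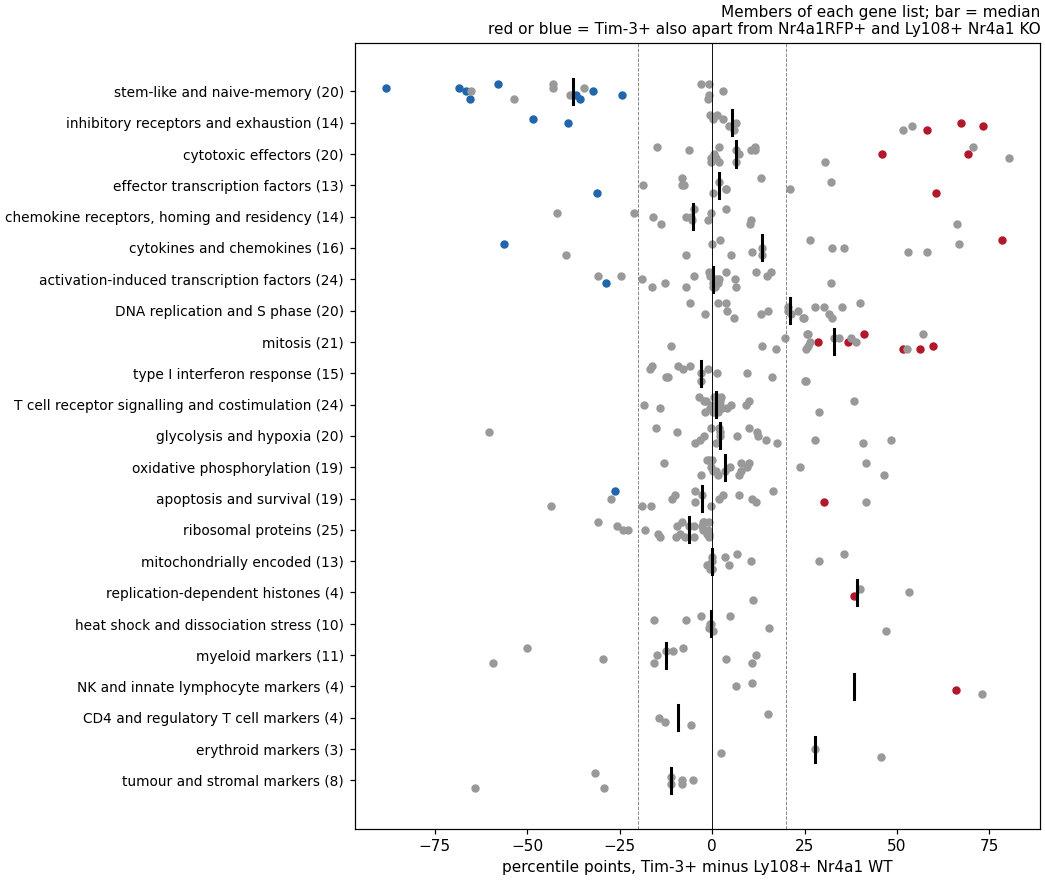
Difference in percentile points (Tim-3+ minus Ly108+ Nr4a1 WT) of every member that passed the filter in each gene list with at least 3 such members, one point a gene, with the list's median as a bar, dashed lines at the 20 point threshold, and red or blue where Tim-3+ cells also lay apart from Nr4a1RFP+ and Ly108+ Nr4a1 KO cells. Stem-like genes lie to the left (median -37.6 points) and mitosis genes to the right (33.0 points), while ribosomal protein genes all lie below 0 with no member in colour.

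Effector transcription factors split by gene. Of 14 in the list 13 passed, 3 were called higher and 1 lower by percentile and 4 and 2 on the rank-matched scale, with a median of 1.77 points that became -4.18 with length medians subtracted, while the rank-matched median went from 0.40 to 0.10. Prdm1, which encodes the terminal differentiation factor Blimp-1, read 17.4 and 19.2 RPKM in Tim-3+ cells, 2.39 and 2.30 in Nr4a1RFP+ cells and 2.24, 1.74 and 1.88 in Ly108+ Nr4a1 WT cells. Its 60.7 point gap placed it among the genes apart from all other groups, and it passed against Nr4a1RFP+ cells (log2 fold change 2.53, SE 0.11, adjusted p = 6.39e-05). Id2, the counterpart of Id3 in effector cells, was called on the rank-matched scale at 2.02 (1162 and 783 RPKM against 197, 156 and 155), and at 1.41 with the length median subtracted (its percentile difference, 1.77 points under a ceiling of 2.09, turned to -6.03 by construction).

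Batf and Irf8 were called higher, at 21.2 and 32.2 points, but Nr4a1RFP+ cells held like levels, with 69.2 and 68.4 RPKM of Batf beside 82.4 and 84.9 in Tim-3+ cells. Ikzf2, which encodes the Ikaros family factor Helios, was lower at 4.09 and 5.38 RPKM against 17.02, 17.95 and 18.6 RPKM, with Nr4a1RFP+ cells at 16.9 and 21.9. Tbx21 (T-bet) and Eomes, the T-box factors of effector and memory cells, were not called, at 3.62 and -8.18 points.

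The NR4A receptors themselves followed separate courses. Nr4a1 read 132 and 125 RPKM in Tim-3+ cells and 53.9, 46.4 and 45.0 RPKM in Ly108+ Nr4a1 WT cells, called on the rank-matched scale at 1.36 and not by percentile at 6.49 points. Nr4a1RFP+ cells held 113 and 115 RPKM of Nr4a1, and the libraries labelled Nr4a1 KO held 112, 100.6 and 102 RPKM, more than the WT libraries. No source read here gives the deleted part of Nr4a1, so the gene-level value neither checks nor refutes that label, and those libraries serve here only as another Ly108+ group. Nr4a3 went down in rank, at 19.4 and 20.1 RPKM against 85.6, 100.7 and 99.7 RPKM (-18.9 points, rank-matched -2.09). Against Nr4a1RFP+ cells Nr4a3 passed (log2 fold change -0.53, SE 0.11, adjusted p = 0.0172), and the highest adjusted p with a library left out was 0.242. Nr4a2 stood just under the rank-matched threshold at 0.99, with 291 and 306 RPKM against 119, 127 and 126.

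Of 24 activation-induced transcription factors, all of which passed the filter, 1 was called higher and 3 lower by percentile and 4 and 5 on the rank-matched scale. Fos, an AP-1 subunit, was 32.1 points higher than in Ly108+ Nr4a1 WT cells, and lower than in Nr4a1RFP+ cells (log2 fold change -0.91, adjusted p = 0.00615). Klf4, a quiescence factor of T cells, was the member for which Tim-3+ cells lay below all 3 groups, at 12.4 and 7.20 RPKM against 28.6 and 27.0 in Nr4a1RFP+ and 34.6, 41.1 and 41.9 in Ly108+ Nr4a1 WT cells. Egr1, an early target of receptor signalling, was called higher on the rank-matched scale at 98.1 and 105 RPKM against 30.7, 25.8 and 26.9, with Nr4a1RFP+ cells at 29.9 and 28.7.

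Receptors for homing showed 1 member called higher (Ccr8) and 2 lower (Cxcr4 and the integrin chain Itga4) by percentile among the 14 that passed of 18. On the rank-matched scale 2 were called higher and 6 lower. Cxcr4, which holds cells near its ligand CXCL12, read 9.19 and 7.87 RPKM in Tim-3+ cells, 10.95 and 10.02 in Nr4a1RFP+ cells and 172, 193 and 183 in Ly108+ Nr4a1 WT cells. Ccr8, a chemokine receptor of tissue T cells, ran opposite, at 47.3 and 50.9 RPKM, 83.8 and 89.3, and 2.10, 3.75 and 3.83. For both genes the Nr4a1RFP+ libraries lay nearer to the Tim-3+ ones than to Ly108+ cells. In limma against Nr4a1RFP+ cells Cxcr4 did not pass (log2 fold change -0.27, adjusted p = 0.177), and Ccr8 was lower in Tim-3+ cells (log2 fold change -0.81, adjusted p = 0.0035). Cxcr6, a receptor that positions effector cells in tumours, was instead apart from all 3 groups on the rank-matched scale, at 600 and 518 RPKM against 127 and 85.7 in Nr4a1RFP+ and 89.2, 93.5 and 92.4 in Ly108+ Nr4a1 WT cells. Its rank-matched difference of 2.32 was 1.71 with the length median subtracted (its percentile difference, 3.85 points under a ceiling of 4.43, turned to -3.95 by construction). Ccr2, a receptor of inflammatory chemokines, was not called against Ly108+ cells (10.2 points) and was higher than in Nr4a1RFP+ cells (log2 fold change 3.02, adjusted p = 0.00067).

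Cell cycle genes ranked higher in Tim-3+ cells. Of 20 genes of DNA replication and S phase, all of which passed, 12 were called higher and 0 lower (median 21.0 points), and of 22 mitosis genes 21 passed and 17 were called higher and 0 lower (median 33.0 points). Birc5, the chromosomal passenger survivin, read 16.6 and 25.7 RPKM in Tim-3+ cells, 7.48 and 7.46 in Nr4a1RFP+ cells and 2.27, 2.55 and 2.25 in Ly108+ Nr4a1 WT cells. Ccnb2, a mitotic cyclin, read 37.2 and 69.6 RPKM, 24.7 and 26.0, and 5.31, 4.15 and 4.92. Tyms, the thymidylate synthase of S phase, read 7.72 and 10.99 RPKM, 7.28 and 9.08, and 2.23, 2.63 and 2.33.

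Tim-3+ cells lay above all 3 other groups for 6 of the mitosis genes (Birc5, Aurkb, Ccna2, Bub1, Cdk1 and Ube2c) and for 0 of the S phase genes. Of these 6, Aurkb, Ccna2 and Bub1 did not pass in limma against Nr4a1RFP+ cells (adjusted p = 0.066, 0.0501 and 0.0682). In limma against Nr4a1RFP+ cells 8 mitosis and 4 S phase genes were higher and 0 lower, and 2 (Birc5 and Ube2c) and 1 of these passed in all 4 fits that left out a library. Tim-3+ library 2 read higher than library 1 in each cycle gene named here. Mki67 and Top2a, common markers of cycling cells, were not called against Ly108+ Nr4a1 WT cells, at 17.2 and 13.5 points. Of 43 replication-dependent histone genes 4 were listed in both tables and passed, and 3 of them were called higher.

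In signalling, interferon, metabolic and survival lists the percentile and rank-matched counts differed. Of 24 genes of receptor signalling and costimulation 8 were called higher and 2 lower on the rank-matched scale. By percentile 2 were called higher and 0 lower, Sh2d1a (the adaptor SAP, 38.3 points) and Cd226 (a costimulatory receptor, 29.0 points). In limma against Nr4a1RFP+ cells 1 of the 24 was higher and 1 lower. Sh2d1a did not pass there (log2 fold change -0.05, adjusted p = 0.858), while Cd226 was higher in Tim-3+ cells (log2 fold change 0.74, adjusted p = 0.00427). Of 15 type I interferon response genes that passed of 18, 2 were called higher (Usp18 and Oas1a) and 0 lower by percentile and 2 and 1 on the rank-matched scale, while in limma 9 of 13 tested were higher than in Nr4a1RFP+ cells and 6 of the 9 passed in all 4 fits that left out a library. Against Ly108+ Nr4a1 WT cells the interferon list had a median of -3.09 points (-0.31 on the rank-matched scale), where all genes had 0.769 points. Of 20 glycolysis and hypoxia genes 7 were called higher and 2 lower on the rank-matched scale and 3 and 1 by percentile. The one lower by percentile was the oxygen sensor Egln3 (2.00 and 1.69 RPKM against 20.7, 23.7 and 26.4). Limma called 1 of the 20 higher and 2 lower than in Nr4a1RFP+ cells. Of 19 oxidative phosphorylation genes 5 were called higher and 0 lower on the rank-matched scale and 3 and 0 by percentile, and limma called 0 of them against Nr4a1RFP+ cells. With length medians subtracted the rank-matched median of that list went from 0.56 to -0.018. Of 19 apoptosis and survival genes 5 were called higher and 5 lower on the rank-matched scale and 2 and 3 by percentile, with Fas, the death receptor, below all 3 other groups at 9.78 and 6.26 RPKM against 31.7, 25.1 and 23.6 RPKM. Of 10 heat shock and dissociation stress genes that passed of 11, Hspa1a alone was called by percentile, 46.9 points higher, and 1 was higher and 2 lower on the rank-matched scale, at 9.66 and 9.76 RPKM against 2.69, 1.53 and 1.34.

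Beyond the lists, the genes that set Tim-3+ cells apart from all 3 other tumour groups included surface receptors and signalling proteins. Those named here are among the largest gaps in each direction. Adgrg1, the adhesion receptor GPR56 of cytotoxic lymphocytes, read 12.2 and 13.1 RPKM in Tim-3+ cells, 0.477 and 0.372 in Nr4a1RFP+ cells and 0.779, 0.885 and 0.771 in Ly108+ Nr4a1 WT cells. Pvrig, an inhibitory receptor for a nectin family ligand, read 17.4 and 18.8 RPKM, 3.87 and 2.55, and 1.87, 1.62 and 1.85. Lat2, a membrane adaptor related to LAT, read 16.5 and 15.05 RPKM, 5.92 and 6.03, and 1.51, 1.48 and 1.42. In each of the 3 genes both Tim-3+ libraries exceeded all other tumour libraries, though Adgrg1 passed the filter only through the Tim-3+ libraries.

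On the low side, Lrig1, an inhibitor of receptor tyrosine kinases, read 0.262 and 0.0934 RPKM in Tim-3+ cells, 8.61 and 10.96 in Nr4a1RFP+ cells and 33.1, 36.6 and 38.2 in Ly108+ Nr4a1 WT cells. Zhx2, a transcriptional repressor, read 1.19 and 1.09 RPKM, 5.78 and 6.40, and 51.4, 60.5 and 61.5. Dapl1, a marker of quiescent memory cells in mice, differed from these in that Nr4a1RFP+ cells held the most, with 0.719 and 1.33 RPKM, 94.7 and 105, and 38.9, 36.4 and 44.2 in the same order. Sesn3, a stress-responsive inhibitor of growth signalling that FOXO factors induce, read 1.48 and 1.08 RPKM, 4.35 and 4.38, and 37.9, 40.5 and 41.2. In limma 85 of the 89 genes apart on the high side were higher and all 71 on the low side were lower than in Nr4a1RFP+ cells, a direction that the choice of the sets fixed.

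**Figure D4:**
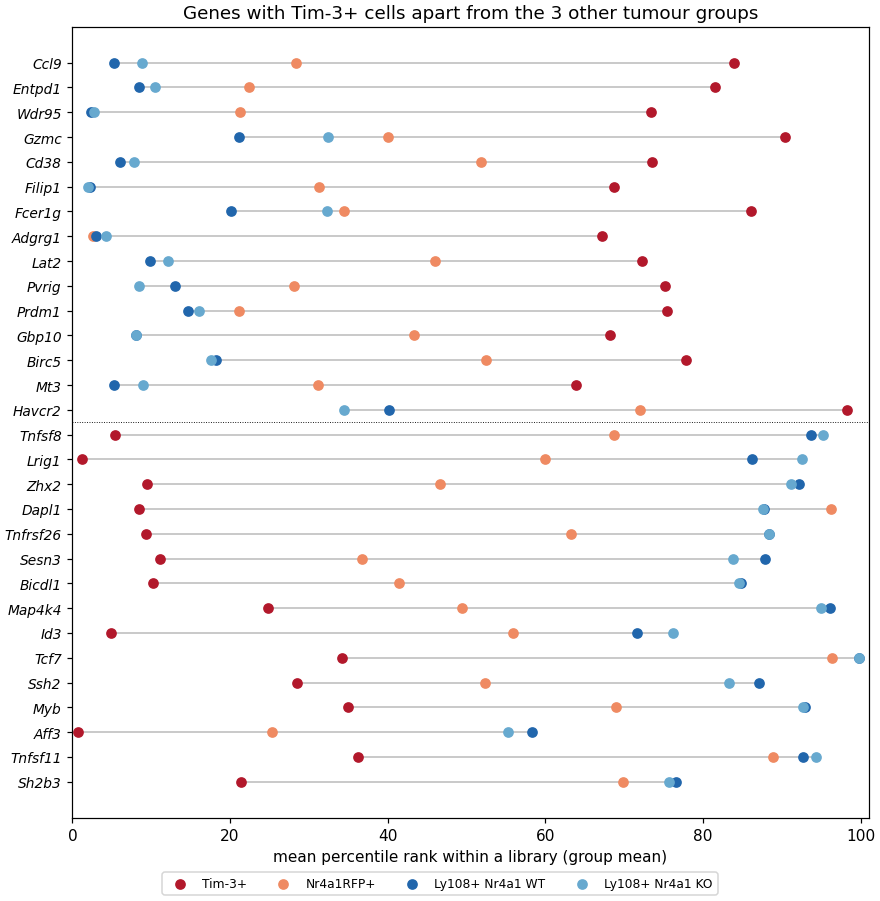
Group mean percentile rank in the 4 tumour groups for 15 genes in each direction, taken from the largest gaps among those for which Tim-3+ cells lay apart from all 3 other groups, higher above the dotted line and lower below it. For Adgrg1 the Nr4a1RFP+ mean lies with the Ly108+ means, whereas for Dapl1 it lies above them and for Filip1 between them and Tim-3+ cells.

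Many of the largest rank gaps did not involve Tim-3+ cells in particular, because Nr4a1RFP+ libraries of the same table had them too. Nor was the split limited to the largest gaps, since most percentile calls in either direction were split by table, as given above. Eno1b, a near copy of the glycolytic gene Eno1, had the widest gap of the named genes called higher, 94.9 points. It read 385 and 425 RPKM in Tim-3+ cells, 336 and 342 in Nr4a1RFP+ cells and 0.97, 0.76 and 1.13 in Ly108+ Nr4a1 WT cells, and 88.7% of its 32-base transcript windows are shared with another gene. Its partner Eno1 read 70.5 to 73.8 RPKM in Tim-3+ and 27.7 to 28.7 RPKM in Ly108+ Nr4a1 WT libraries. Rps27rt, a copy of the ribosomal protein gene Rps27, read 4344 and 2052 RPKM against 2.09, 2.25 and 1.72 RPKM, while Rps27 read 14.8 to 29.5 RPKM in Tim-3+ and 588 to 685 RPKM in Ly108+ Nr4a1 WT libraries. Aldoart1, Rbm8a2, Acot10, Csl, H2-Q1, Bcl2a1a, Uchl4 and Supt4b showed the same pattern, each sharing 12.4% to 78.9% of its windows with other genes and each high in both groups of the first table.

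Of the 12 genes named as the largest percentile gaps on the high side, Cx3cr1 and Ccl9 were the 2 that passed in limma against Nr4a1RFP+ cells. On the low side Tatdn2, a nuclease family gene, read 1.16 and 0.853 RPKM in Tim-3+ cells, 1.08 and 0.739 in Nr4a1RFP+ cells and 95.0, 94.2 and 97.7 in Ly108+ Nr4a1 WT cells. Lars2, a mitochondrial tRNA synthetase gene, was the reverse, at 45.5 and 50.5 RPKM, 67.2 and 53.9, and 0.75, 0.912 and 0.847, although it shares only 0.824% of its windows. Of the 170 genes with at least 50% of windows shared, 41.8% were called higher and 4.12% lower, with a median of 15.5 points.

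Gene length moved with the rank difference as well. From the shortest to the longest of 10 near-equal groups of genes the median difference ran from 10.8 to -8.76 points, and the share called higher from 31.25% to 4.38%. Between Tim-3+ and Nr4a1RFP+ cells, within 1 table, the medians of the same groups ran from 0.684 to -0.997 points. All 25 ribosomal protein genes examined were lower in Tim-3+ than in Ly108+ Nr4a1 WT cells on the rank-matched scale, 4 of them by percentile, and limma called 0 of them against Nr4a1RFP+ cells. Of 13 mitochondrially encoded genes that passed of 15, 6 were called higher and 5 lower on the rank-matched scale (mt-Atp6 at 5173 and 3516 RPKM against 78.5, 104 and 83.5, with Nr4a1RFP+ cells at 4316 and 4815). The part of table or preparation in any single gene's gap was not tested.

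**Figure D5:**
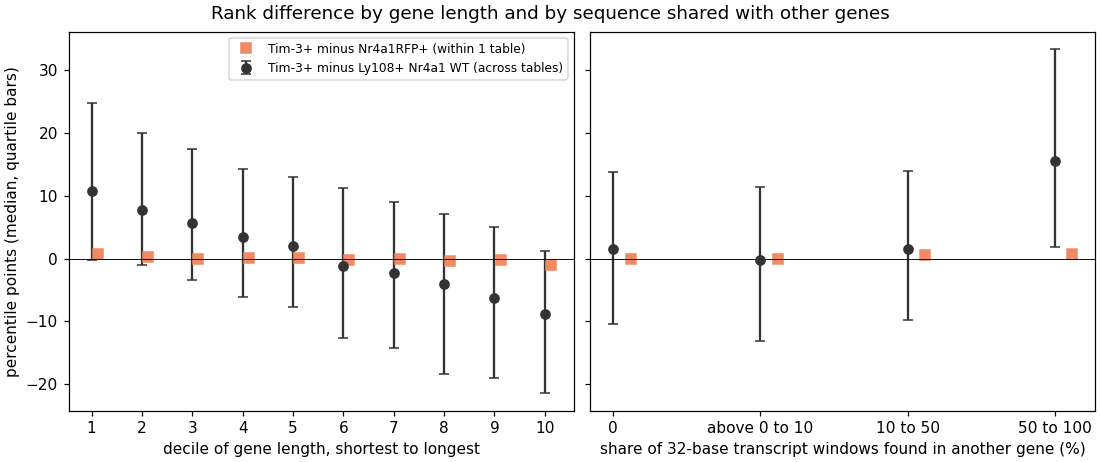
Median difference in percentile points by length group, from shortest to longest genes, (left) and by share of 32-base transcript windows found in another gene (right), for Tim-3+ minus Ly108+ Nr4a1 WT cells (dark points, bars from the lower to the upper quartile) and Tim-3+ minus Nr4a1RFP+ cells (orange squares). Across the tables the medians fall from 10.8 to -8.76 points with length and reach 15.5 points in genes with the most shared sequence, while within the table they stay between -0.997 and 0.794 points.

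Markers of other cells were compared too, since a sort can carry some along. Of 11 myeloid markers that passed of 16, 0 were called higher and 3 lower (Lyz2, Apoe and C1qb) by percentile, and 1 and 5 on the rank-matched scale. Lyz2, a lysozyme of macrophages, read 3.82 and 2.88 RPKM in Tim-3+ cells against 40.1, 45.0 and 52.0 RPKM. Against Nr4a1RFP+ cells Lyz2 did not pass in limma (log2 fold change -0.25, adjusted p = 0.262). The summed RPKM of the myeloid list ran from 287 to 295 in Tim-3+ and from 149 to 161 in Ly108+ Nr4a1 WT libraries (663 to 855 in Nr4a1RFP+ and 203 to 255.5 in Ly108+ Nr4a1 KO), of which Cst3, a protease inhibitor gene, made up 262 and 258 RPKM in Tim-3+ libraries. Cst3 was 2.51 higher than in Ly108+ Nr4a1 WT cells on the rank-matched scale. It was lower than in Nr4a1RFP+ cells (limma log2 fold change -1.42, adjusted p = 0.00174). Csf1r and Adgre1, which define macrophages, stayed below 1 RPKM in all 5 libraries. Of 8 tumour and stromal markers that passed of 16, 0 were called higher and 3 lower, led by the melanocyte gene Pmel (1.66 and 1.502 RPKM against 25.4, 24.6 and 24.2). The list summed to 10.2 to 10.6 RPKM in Tim-3+ and 61.2 to 63.0 RPKM in Ly108+ Nr4a1 WT libraries. Nr4a1RFP+ libraries were low too, at 17.7 to 19.01 RPKM, and Ly108+ Nr4a1 KO libraries held 67.1 to 81.1 RPKM. For all 8 genes every library of the Nr4a1RFP+ and Tim-3+ table ranked below all Ly108+ libraries. In limma 2 of 3 tested were lower than in Nr4a1RFP+ cells, Pmel among them (log2 fold change -0.70, adjusted p = 0.0064). These sums cover the markers listed in each table. No listed marker was at 0 in all libraries of a group, and markers that a table does not list could not be checked.

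Of the 4 natural killer and innate lymphocyte markers that passed of 8, 2 were called higher by percentile, Klre1 and Fcer1g, and 3 on the rank-matched scale. In limma against Nr4a1RFP+ cells Klre1 did not pass (log2 fold change 0.26, adjusted p = 0.357), while Fcer1g did (log2 fold change 2.82, adjusted p = 0.000131). Fcer1g, a signalling chain that cytotoxic T cells can also express, read 37.7 and 30.9 RPKM against 2.08, 3.34 and 2.50, and Klrb1c, a defining natural killer marker, stayed below 1 RPKM in all 5 libraries. The natural killer list summed to 142 to 190 RPKM in Tim-3+, 99.6 to 106 RPKM in Nr4a1RFP+ and 36.1 to 37.8 RPKM in Ly108+ Nr4a1 WT libraries. Haemoglobin genes were called higher for 2 of the 3 erythroid markers that passed of 7, and the list summed to 23.1 to 35.5 and 7.84 to 15.4 RPKM. In Nr4a1RFP+ libraries the erythroid list summed to 1.84 and 70.0 RPKM. Of 5 CD4 and regulatory T cell markers 4 passed and 0 were called, with Cd4 at or below 0.0863 RPKM in Tim-3+ libraries, and the list summed to 20.8 to 22.7 and 23.3 to 24.02 RPKM. The natural killer sums cover 6 markers in the Nr4a1RFP+ and Tim-3+ table and 5 in the Ly108+ table. The erythroid sums and the CD4 sums each cover 5 and 4, so these sums are not over the same markers. Of 10 B cell markers 1 passed and was not called, and their sums are not set side by side because Ighm was listed in the Ly108+ table alone. None of 11 nuclear noncoding RNAs was listed in both tables. The part of other cells in the differences above was not tested.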

How the data were processed

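Per the labels, RNA was extracted from sorted cells kept in Trizol, and libraries were made either by BGI or by Smartseq2; no source read here says which libraries had which. The submitters' processing notes name Trim Galore, HISAT2, the mouse build mm10, edgeR and DESeq2, without versions or roles. The authors deposited RPKM values per gene in 1 table for Nr4a1RFP+ and Tim-3+ cells and 1 for Ly108+ cells. The authors also deposited counts of reads per gene, as far as their whole-number values show, and RPKM values for cells grown in vitro. Expression in those cells is not analysed here. The ratio of their counts to their RPKM gave the gene lengths used for the length groups, length medians and recovered depth. Columns named Tex were taken as the Tim-3+ libraries from the series' design text, and 2 columns of values matched no labelled sample and were not used.

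Genes listed in both tables with at least 1 RPKM in 2 of the 5 libraries were ranked within each library. Recovered depth treats RPKM values as multiples of 1 read: of values under 200 reads, 96.8% to 97.9% in the first table and 74.1% to 90.0% in the second were within 0.05 of a whole number. RPKM was tested with limma (3.58.1, R 4.3.3) on log2(RPKM + 1) between the 2 Tim-3+ and 2 Nr4a1RFP+ libraries, with Benjamini-Hochberg adjustment over all genes tested and a threshold of 0.05. The ranking and the limma fit were tested on simulated data. Ranks were computed with Python 3.11.15, pandas 2.3.3 and numpy 2.4.6.

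The genes and lists were chosen with earlier results of these data known. Genes named by rule were 8 fixed genes, the 12 largest percentile and 8 largest rank-matched differences per direction among called genes with a mean of at least 5 RPKM in the higher group, and up to 5 called members of each list, or 2 where none was called. Other genes named were chosen after their values were seen. Alternatives were other thresholds, filters, scalings, a subtraction of length medians and leaving out each library. Added after seeing the data were Ly108+ Nr4a1 KO in place of WT, the requirement that Tim-3+ cells lie apart from all other groups, and leaving out genes with at least 10% of windows shared. Some items withheld from the text are not reported here, though list counts include every member.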

Additional observations from a re-analysis of the deposited data

How the results depend on the processing

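At a threshold of 10 percentile points 2931 genes were higher and 2622 lower in Tim-3+ cells, and at 30 points 636 and 856. On the rank-matched scale a threshold of 0.58 gave 3056 and 2803, and 2 gave 360 and 538. Requiring Tim-3+ cells to lie apart from each other tumour group left 89 and 71 by percentile and 94 and 79 on the rank-matched scale, an alternative chosen after seeing the data. With each library left out of the limma fit, the genes higher in Tim-3+ cells ranged from 350 to 1650 and those lower from 279 to 1575; the lone library left in a group was assumed to vary like the other group. A pseudocount of 0.1 gave 818 and 861, and no filter on low values gave 788 and 1006.

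With the replicate number as a replicate block, limma called 1090 genes higher and 1053 lower. Libraries of the same number correlated at 0.2186 in their deviations over 2 pairs, and the labels do not say that a number marks a shared mouse or batch.

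Subtracting the median difference of genes of like length turned the percentile differences of 11 named and called genes below 0: Gzmb to -9.60, Nkg7 to -10.05, Id2 to -6.03, Cxcr6 to -3.95, Cd3g to -1.30, Zap70 to -0.53, Bcl2a1d to -3.58, Bcl2a1b to -0.0077, mt-Atp6 to -6.16, mt-Atp8 to -0.27 and mt-Co3 to -4.03. For 9 of the 11 the subtracted median exceeded the room left above the gene's percentile in Ly108+ cells, so the sign was fixed by construction. On the rank-matched scale all 11 stayed at least 1 apart after the same subtraction, from 1.08 to 4.04. Among the other values of named genes under alternatives, 1081 moved by less than the spread between libraries and 415 by more, with no change of sign in a called gene. Precision is limited by 2 Tim-3+ libraries and by a table for each sort.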

Other observations

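Some receptors and granzymes were listed in the table of the Tim-3+ libraries alone and could be compared with Nr4a1RFP+ cells only. Cd244a, which encodes the receptor 2B4, read 16.5 and 17.5 RPKM in Tim-3+ cells and 1.42 and 1.19 RPKM in Nr4a1RFP+ cells. Gzmf, a granzyme of strongly stimulated cells, read 100.5 and 137 RPKM against 7.67 and 6.73 RPKM, and Gzmd read 82.2 and 109 RPKM against 14.3 and 13.3 RPKM. In each of the 3 genes both Tim-3+ libraries lay above both Nr4a1RFP+ libraries.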
